A study of Mus musculus with 12 samples.

Results

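The 10 genes described here encode the heat shock protein 90 (HSP90) and HSP70 chaperones of the cell and the mitochondrial chaperonin, out of 38127 genes counted in each library. They are *Hsp90ab1*, *Hsp90aa1*, *Hsp90b1*, *Hspa8*, *Hspa9*, *Hspa5*, *Hspa4*, *Hspd1*, *Hspe1*, and *Hspa1a*. They were taken by name, because *Hsp90ab1* was among the most abundant transcripts of P2 cells. Its level in P2 cells and its differences between P2 and the other populations are therefore given as descriptions, without a test. All 10 passed the low count filter of both statistical fits. *Hspa1a* passed that of the fit between the ages through the E18.5 libraries, where it was high.
RNA-seq libraries were made from cells, given as C57BL/6 embryonic liver, that lacked the erythroid antigen Ter119 and the leukocyte antigen CD45, with 3 libraries in each of 4 groups. At E14.5 (embryonic day 14.5) these were P2 cells (Ter119-CD45-CD54-CD31-Kit+CD24+), which the study describes as erythroid progenitors, CD54+CD31- cells, which the study names by their epithelial cadherin CD324 and which include hepatoblasts, and CD54+CD31+ endothelial cells, called CD31+ here. The fourth group was the CD54+CD31- fraction at E18.5. No transgene, deletion, or treatment is named for any group. The replicates of the E14.5 populations came from independent litters according to the study, and for the E18.5 libraries no such statement was at hand.

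Chaperones bind proteins that are not folded and hold or release them in cycles of ATP hydrolysis. HSP70 proteins take newly made or unfolded chains, with J-domain proteins delivering the client and nucleotide exchange factors releasing it, and HSP90 proteins act later, on signaling kinases, steroid receptors, and other clients that are near their native state. Each compartment has its own copies. HSP90β (*Hsp90ab1*), HSP90α (*Hsp90aa1*), and HSC70 (*Hspa8*) work in the cytosol, GRP94 (*Hsp90b1*) and BiP (*Hspa5*) in the endoplasmic reticulum (ER), and mortalin (*Hspa9*) in mitochondria. HSPA4 belongs to the HSP110 branch, which serves as a nucleotide exchange factor for cytosolic HSP70. HSP60 (*Hspd1*) and its lid HSP10 (*Hspe1*) form the mitochondrial chaperonin and belong to neither the HSP90 nor the HSP70 family. *Hspa1a* encodes the inducible HSP70, which is low in unstressed cells. In erythroid cells HSP70 and mortalin are known for their part in the protection of GATA1 and in iron-sulfur cluster and heme metabolism.

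The ends of the coding sequences carry signals that set the cytosolic and the ER members apart. The last 33 coding bases of 6 members, read from the GENCODE vM21 transcripts of GRCm38, are printed 5′ to 3′ with the last 4 codons and the stop codon in capitals.
Hsp90ab1: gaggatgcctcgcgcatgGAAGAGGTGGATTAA
Hsp90aa1: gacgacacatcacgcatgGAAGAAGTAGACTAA
Hspa8: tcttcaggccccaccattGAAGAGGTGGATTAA
Hspa1a: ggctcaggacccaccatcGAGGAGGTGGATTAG
Hsp90b1: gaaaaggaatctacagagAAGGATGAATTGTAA
Hspa5: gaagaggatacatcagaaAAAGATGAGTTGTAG
The 4 cytosolic genes *Hsp90ab1*, *Hsp90aa1*, *Hspa8*, and *Hspa1a* encode the same 4 last residues, the tail that binds the tetratricopeptide repeats of co-chaperones. The 2 ER genes, *Hsp90b1* and *Hspa5*, share another tail, which returns escaped proteins to the ER. *Hspa4*, *Hspd1*, and *Hspe1* each end in a tail that none of the other 8 members read here shares, and the end of *Hspa9* was not read.
The stretches before the transcription start were also searched for known response elements, as a description of sequence. RefSeq promoters of GRCm38.p6 were at hand for 6 members (*Hsp90b1*, *Hspa5*, *Hspa4*, *Hspd1*, *Hspe1*, and *Hspa1a*), and the 250 bases before the start were searched on both strands. The ER stress response element (ERSE, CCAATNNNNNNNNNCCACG) is in capitals in the first 2 sequences, and units of the heat shock element (HSE, GAANNTTC or TTCNNGAA) in the others.
Hspa5, chr2:34772020-34772049, plus strand: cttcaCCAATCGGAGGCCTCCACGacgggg
Hsp90b1, chr10:86705510-86705694, minus strand: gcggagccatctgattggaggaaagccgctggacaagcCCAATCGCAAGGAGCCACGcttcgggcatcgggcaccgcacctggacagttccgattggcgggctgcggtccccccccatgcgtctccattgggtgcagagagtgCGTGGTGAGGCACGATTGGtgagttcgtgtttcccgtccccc
Hspe1 and Hspd1, chr1:55088053-55088082, plus strand: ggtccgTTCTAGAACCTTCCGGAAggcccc
Hspa1a, chr17:34972157-34972306, minus strand: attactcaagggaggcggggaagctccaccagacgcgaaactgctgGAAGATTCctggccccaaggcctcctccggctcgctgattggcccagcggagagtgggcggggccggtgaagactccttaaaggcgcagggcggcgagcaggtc
*Hsp90b1* had 2 ERSE matches, the second of them on the reverse strand, and *Hspa5* had 1, while 37 of 32851 promoters of that length (0.113%) had any. The *Hspa5* stretch lies before the RefSeq start at chr2:34772090 but after the start of the gene in GENCODE, at chr2:34771970. *Hspe1* and *Hspd1* are transcribed in opposite directions. An *Hspd1* RefSeq start lies 216 bases from that of *Hspe1*, and the same run of alternating HSE units lies between these starts. Another *Hspd1* RefSeq start, at chr1:55088243, lies beyond the *Hspe1* start at chr1:55088148, and the 250 bases before it matched none of these patterns. An HSE of 3 units (GAANNTTCNNGAA) was present in 153 of the 32851 promoters (0.466%). *Hspa1a* had a single GAANNTTC match, a pattern found in 6.69% of promoters, and *Hspa4* had no match to any of these patterns. The matches are matches of letters and were not tested as binding sites. Their relation to the levels of the genes was not tested.

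Total counts were between 40714017 and 64368883 per library. *Hspa1a* had 2 to 141 counts per library, and each of the other 9 members at least 1544. Levels are given as CPM (relative to the library size after TMM adjustment) over all 12 libraries, and as CPM per kb of annotated exon where genes are compared with each other. Differences were tested by quasi-likelihood in edgeR, with p-values adjusted by Benjamini and Hochberg's method over all genes tested, and called at an adjusted p below 0.05. Hepatoblast markers summed to between 68567 and 78844 CPM in E14.5 CD54+CD31- libraries, endothelial markers to between 8614 and 9139 in CD31+ libraries, and erythroid markers to between 1565 and 1588 in P2 libraries. The 7 erythroid markers are all among the genes that the study listed from these data as higher in P2 than in CD324+ cells. *Kit* was also used in the sort. The high P2 sum of this list is therefore a description and not support for the name of the cells. Erythroid markers also summed to between 142 and 261 CPM in E14.5 CD54+CD31- and between 217 and 292 in CD31+ libraries. Hepatoblast markers summed to between 669 and 679 CPM in P2 and between 818 and 902 in CD31+ libraries. The part of RNA from other populations in the E14.5 differences was not tested. P2 replicate 2 held 351 CPM of endothelial markers, against 53.0 and 94.9 in replicates 1 and 3. In the E18.5 libraries the 7 lung epithelium markers summed to between 8489 and 19320 CPM, against at most 4.78 in any E14.5 library, and replicate 1 had 5413 CPM of hepatoblast markers against 35548 and 45780 in replicates 2 and 3. The lung epithelium RNA does not match the liver origin given for the E18.5 libraries, and its source was not resolved. The part of these cells in the E18.5 values was not tested.

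Of the cytosolic HSP90 genes, *Hsp90ab1* (ENSMUSG00000023944, chr17:45567775-45573271) was the most abundant member in all 4 groups, both in CPM and per kb. In P2 cells the 3 libraries had 7451, 8016, and 7499 CPM. The E14.5 CD54+CD31- libraries had 4354, 4882, and 4872 CPM, and the CD31+ libraries 5150, 4997, and 3879 CPM. The E18.5 libraries had 2080, 1880, and 2005 CPM. Every P2 library lay above every other library and every E18.5 library below, while the CD54+CD31- and CD31+ libraries of E14.5 overlapped. *Hsp90ab1* stood at position 8 of 16643 genes by mean CPM in P2 cells and also in CD31+ cells, at 18 in E14.5 CD54+CD31- cells, and at 23 at E18.5. Per kb it was at position 3 of 15213 protein-coding genes in P2 cells, 4 in CD31+ cells, 16 in E14.5 CD54+CD31- cells, and 22 at E18.5. The fitted P2 level was 1.61 times that of CD54+CD31- cells and 1.62 times that of CD31+ cells. CD31+ and CD54+CD31- cells of E14.5 differed by a log2 fold change of -0.016 (95% interval -0.24 to 0.21, adjusted p = 0.910, edgeR), and the sign of that difference changed in 7 of the alternative settings.
*Hsp90aa1* (ENSMUSG00000021270, chr12:110690605-110702728), the more inducible HSP90, showed wider differences. Its P2 libraries had 1615, 1650, and 1561 CPM, E14.5 CD54+CD31- libraries 472, 538, and 507, CD31+ libraries 344, 330, and 266, and E18.5 libraries 112, 130, and 125. No library of any group overlapped with a library of another group. It was 3.14-fold higher in P2 than in CD54+CD31- cells (log2 fold change 1.65, SE 0.11, adjusted p = 2.89e-07, edgeR) and 5.09-fold higher than in CD31+ cells (log2 fold change 2.35, SE 0.11, adjusted p = 6.08e-08, edgeR). CD31+ cells in turn were below CD54+CD31- cells (log2 fold change -0.70, SE 0.11, adjusted p = 0.000196, edgeR).
The balance of the 2 cytosolic HSP90 genes therefore differed between populations, in a ratio that needs no scaling between libraries. *Hsp90ab1* exceeded *Hsp90aa1* per kb by 6.05, 6.37, and 6.30 times in the P2 libraries. The ratio was 12.1, 11.9, and 12.6 in E14.5 CD54+CD31- cells, and 19.6, 19.8, and 19.1 in CD31+ cells. At E18.5 it was 24.3, 18.9, and 21.0. P2 cells had the lowest ratio and none of the E14.5 groups overlapped, while the CD31+ and E18.5 libraries did. The coding sequences of these genes were 76.6% identical. Of the 50-base windows of the *Hsp90aa1* transcript, 58.5% also occurred in transcripts of other genes, most in *Gm12346*, which had no counts in any library, and for *Hsp90ab1* the share was 4.49%. How reads with several alignments were counted is not given in the sources used here, so levels compared between genes are uncertain in this respect.

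**Figure D1:**
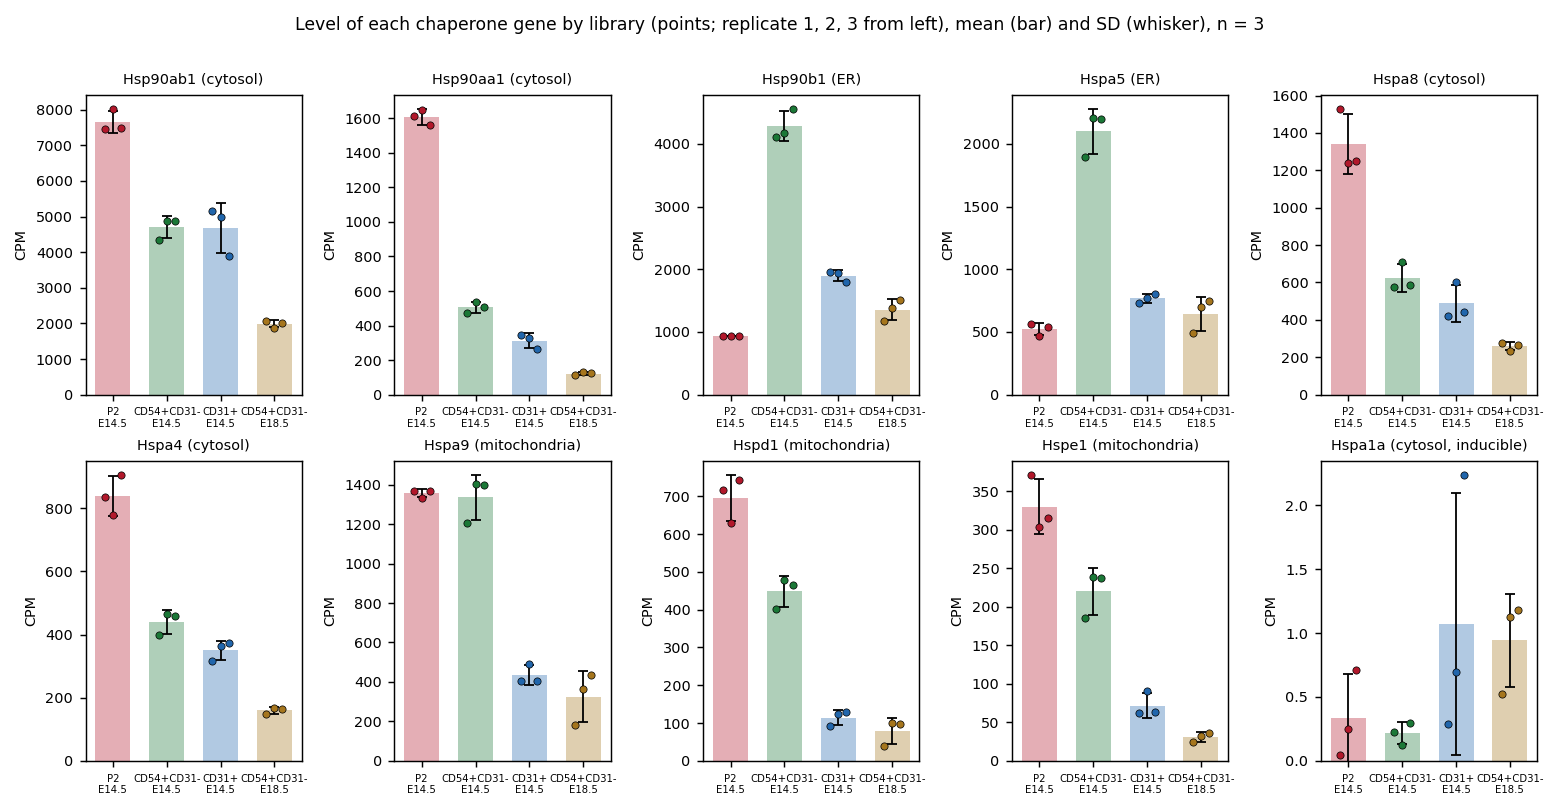
Level of each of the 10 members in CPM (vertical axis, from 0) in the 4 groups (horizontal axis). Points are libraries, bars means, and whiskers SD of 3 libraries. *Hsp90ab1* is at 7655 CPM on average in P2 cells, while *Hsp90b1* and *Hspa5* peak in E14.5 CD54+CD31- cells at 4283 and 2099 CPM, and *Hspa1a* is at most 2.23 CPM in any library.

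The ER members were ordered the other way, lowest in P2 cells at E14.5. *Hsp90b1* (ENSMUSG00000020048, chr10:86690209-86705509), which folds secreted proteins, integrins, and Toll-like receptors, had 933, 937, and 928 CPM in the P2 libraries. E14.5 CD54+CD31- libraries had 4119, 4175, and 4557 CPM, CD31+ libraries 1961, 1949, and 1793, and E18.5 libraries 1174, 1381, and 1518. The 4 groups did not overlap. *Hspa5* (ENSMUSG00000026864, chr2:34771970-34777547), whose product BiP holds chains entering the ER and restrains the sensors of the unfolded protein response, had 560, 470, and 536 CPM in P2 cells. It had 1893, 2203, and 2200 CPM in E14.5 CD54+CD31- cells, 729, 772, and 799 in CD31+ cells, and 493, 697, and 750 at E18.5. Its P2 libraries lay below all other E14.5 libraries and overlapped with those of E18.5.
In P2 cells *Hsp90b1* was lower by 2.22 on the log2 scale than in CD54+CD31- cells, a 4.65-fold difference (SE 0.08, adjusted p = 4.78e-09, edgeR), and *Hspa5* was 4.07-fold lower (log2 fold change -2.03, SE 0.10, adjusted p = 3.74e-08, edgeR). Against CD31+ cells the differences were smaller, 2.05-fold for *Hsp90b1* (log2 fold change -1.04, SE 0.08, adjusted p = 1.13e-06, edgeR) and 1.48-fold for *Hspa5* (log2 fold change -0.57, SE 0.10, adjusted p = 0.000385, edgeR). CD31+ cells were themselves below CD54+CD31- cells for both genes, with log2 fold changes of -1.18 (adjusted p = 5.08e-07, edgeR) and -1.46 (adjusted p = 4.73e-07, edgeR).
The 2 ER genes kept a similar proportion to each other, with *Hsp90b1* at 1.88 ± 0.180 times *Hspa5* per kb in P2 cells, 2.15 ± 0.149 in E14.5 CD54+CD31- cells, 2.61 ± 0.238 in CD31+ cells, and 2.23 ± 0.230 at E18.5 (SD, n = 3 libraries each). Against their cytosolic relatives the proportion differed more. *Hsp90b1* was at 0.0907 ± 0.00334 of the *Hsp90ab1* level per kb in P2 cells and at 0.678 ± 0.0370 in E14.5 CD54+CD31- cells (SD, n = 3 each). In CD31+ cells it was at 0.306 ± 0.0331 and at E18.5 at 0.510 ± 0.0784 (SD, n = 3 each). *Hsp90ab1* was chosen by its P2 level, so the low P2 value of this ratio depends in part on that choice. *Hspa5* per kb was at 0.398 ± 0.0331 of *Hspa8* in P2 cells, 3.44 ± 0.337 in E14.5 CD54+CD31- cells, 1.64 ± 0.286 in CD31+ cells, and 2.56 ± 0.659 at E18.5 (SD, n = 3 each), so that *Hspa8* was above *Hspa5* in each P2 library and below it in every other library.

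**Figure D2:**
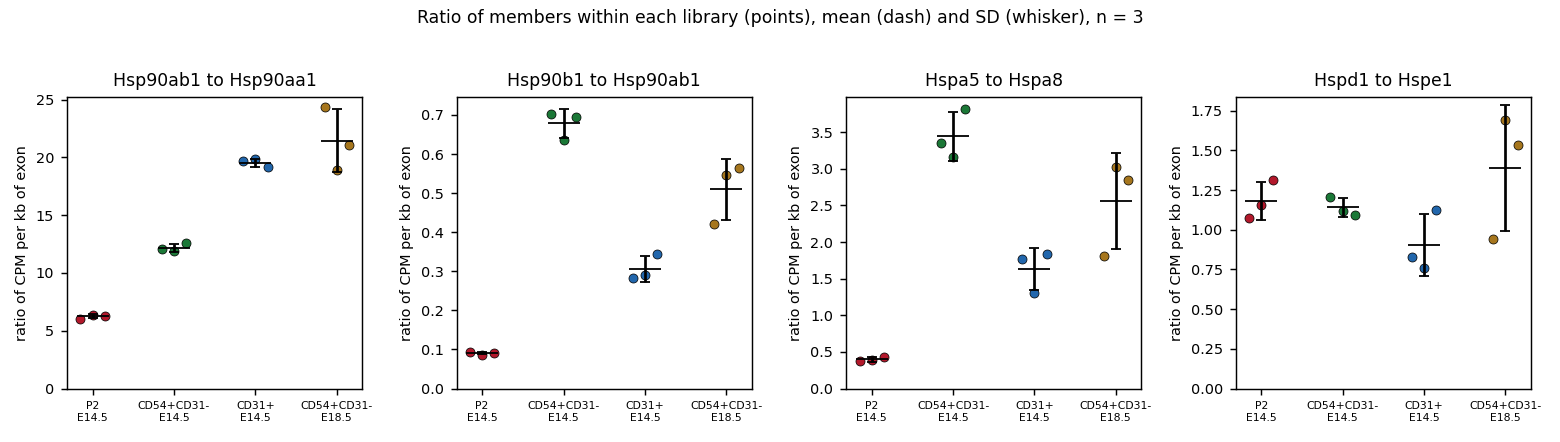
Ratio of CPM per kb of exon between 2 members within each library (vertical axes, from 0) for the 4 groups (horizontal axes). Points are libraries, dashes means, and whiskers SD of 3 libraries. The ratio of *Hsp90ab1* to *Hsp90aa1* is 6.24 on average in P2 cells and 19.5 in CD31+ cells, and that of *Hspa5* to *Hspa8* is 0.398 in P2 cells and 3.44 in E14.5 CD54+CD31- cells.

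The constitutive cytosolic HSP70 *Hspa8* and its exchange factor *Hspa4* were highest in P2 cells. *Hspa8* (ENSMUSG00000015656, chr9:40800984-40810087) had 1527, 1241, and 1252 CPM in P2 cells, 574, 710, and 587 in E14.5 CD54+CD31- cells, 421, 600, and 443 in CD31+ cells, and 278, 235, and 267 at E18.5. *Hspa4* (ENSMUSG00000020361, chr11:53259814-53300457) had 835, 780, and 905 CPM in P2 cells, 398, 464, and 458 in E14.5 CD54+CD31- cells, 316, 363, and 373 in CD31+ cells, and 148, 169, and 165 at E18.5. For both genes the P2 libraries lay above and the E18.5 libraries below all others. *Hspa8* was 2.12-fold higher in P2 than in CD54+CD31- cells (log2 fold change 1.09, SE 0.15, adjusted p = 9.19e-05, edgeR) and 2.73-fold higher than in CD31+ cells (adjusted p = 1.06e-05, edgeR). *Hspa4* was 1.88-fold higher (log2 fold change 0.91, SE 0.10, adjusted p = 1.52e-05, edgeR) and 2.38-fold higher (adjusted p = 1.57e-06, edgeR).
Between CD31+ and CD54+CD31- cells *Hspa4* was slightly lower in CD31+ cells (log2 fold change -0.33, SE 0.10, adjusted p = 0.0138, edgeR), a call that was lost without CD54+CD31- replicate 3 (adjusted p = 0.0505). *Hspa8* had a log2 fold change of -0.36 (SE 0.15, adjusted p = 0.0563, edgeR), with overlapping libraries. With the replicate number as a block, which paired the libraries of these 2 populations, its adjusted p was 0.0453, and without CD31+ replicate 2 its log2 fold change was -0.62 (adjusted p = 0.00323). Of the 50-base windows of the *Hspa8* transcript 73.2% also occurred in other genes, most in *Gm15459*, whose counts were at most 0.0838% of those of *Hspa8* in any library, whereas *Hspa4* and *Hspa5* shared none.

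The mitochondrial members separated CD31+ cells from the other E14.5 populations. *Hspa9* (ENSMUSG00000024359, chr18:34937414-34954357), the mitochondrial HSP70 of protein import and iron-sulfur cluster assembly, had 1369, 1334, and 1367 CPM in P2 cells and 1206, 1402, and 1398 in E14.5 CD54+CD31- cells, which overlapped. The CD31+ libraries had 402, 492, and 405 CPM and the E18.5 libraries 179, 365, and 433. *Hspa9* was 3.11-fold higher in P2 than in CD31+ cells (log2 fold change 1.64, SE 0.10, adjusted p = 2.83e-07, edgeR) and lower in CD31+ than in CD54+CD31- cells (log2 fold change -1.63, SE 0.10, adjusted p = 2.60e-07, edgeR). Its log2 fold change between P2 and CD54+CD31- cells was 0.0047 (95% interval -0.19 to 0.20, adjusted p = 0.970, edgeR), with a sign that changed in 5 alternative settings, and with the authors' normalization factors it was called lower in P2 cells (log2 fold change -0.26, adjusted p = 0.0209).
The chaperonin subunits *Hspd1* (ENSMUSG00000025980, chr1:55077835-55088243) and *Hspe1* (ENSMUSG00000073676, chr1:55088132-55091307) were highest in P2 cells. *Hspd1* had 716, 628, and 742 CPM in P2 cells, 402, 479, and 466 in E14.5 CD54+CD31- cells, 91.6, 123, and 128 in CD31+ cells, and 40.2, 99.7, and 98.1 at E18.5. *Hspe1* had 371, 304, and 316 CPM in P2 cells, 185, 238, and 237 in E14.5 CD54+CD31- cells, 61.7, 90.1, and 63.6 in CD31+ cells, and 23.9, 32.9, and 35.6 at E18.5. The E14.5 populations did not overlap for either gene. Against CD31+ cells, *Hspd1* was 6.04-fold higher in P2 cells (log2 fold change 2.59, SE 0.14, adjusted p = 1.23e-07, edgeR) and *Hspe1* 4.57-fold higher (log2 fold change 2.19, SE 0.16, adjusted p = 8.91e-07, edgeR). Against CD54+CD31- cells they were 1.53-fold (log2 fold change 0.61, SE 0.13, adjusted p = 0.00195, edgeR) and 1.48-fold higher (log2 fold change 0.57, SE 0.16, adjusted p = 0.00858, edgeR), and each call was lost in a setting. *Hspe1* had a log2 fold change of 0.30 and an adjusted p of 0.0676 with the authors' factors. *Hspd1* had an adjusted p of 0.0643 with all 12 libraries in one fit, where its log2 fold change was 0.63. *Hspd1* per kb was 1.18 ± 0.119 times *Hspe1* in P2 cells and 1.14 ± 0.0596 times in E14.5 CD54+CD31- cells (SD, n = 3 each), followed by 1.39 ± 0.397 at E18.5 and 0.905 ± 0.194 in CD31+ cells. These genes overlap head to head in the annotation, and whether counting used strand is not given in the sources used here. Reads of the pseudogene *Hspd1-ps3*, which shared 42.8% of the 50-base windows of *Hspd1*, came to between 5.04% and 8.19% of the *Hspd1* counts.

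*Hspa1a* (ENSMUSG00000091971, chr17:34969190-34972156) stood apart from the other members in level and in spread. It had 2, 12, and 37 counts in the P2 libraries, 8, 4, and 12 in E14.5 CD54+CD31-, 16, 39, and 141 in CD31+, and 34, 87, and 85 at E18.5, or between 0.0459 and 2.23 CPM. All groups overlapped with each other except the CD54+CD31- libraries of E14.5 and E18.5. It was not called between P2 and CD54+CD31- cells (log2 fold change 0.61, SE 0.97, adjusted p = 0.588, edgeR). Between P2 and CD31+ cells the log2 fold change was -1.66 (SE 0.87, adjusted p = 0.109, edgeR). This comparison turned on single libraries: the adjusted p was 0.0318 without P2 replicate 3 and 0.0455 without CD31+ replicate 1, while without CD31+ replicate 3 the log2 fold change was -0.47. With the replicate block the adjusted p was 0.0333. CD31+ cells had a log2 fold change of 2.28 over CD54+CD31- cells (SE 0.94, adjusted p = 0.0533, edgeR), which was past the threshold with the replicate block (log2 fold change 1.91, adjusted p = 0.0327) and in 6 other settings, and which was 1.07 without CD31+ replicate 3.
*Hspa1a* and its neighbor copy *Hspa1b* were 99.6% identical in coding sequence, so the division of reads between them is uncertain. *Hspa1b* had 56, 67, and 302 counts in P2 cells, 20, 9, and 82 in E14.5 CD54+CD31- cells, 123, 153, and 631 in CD31+ cells, and 126, 269, and 236 at E18.5. For both copies replicate 3 was the highest library of each E14.5 population. The 18 immediate early genes, which respond to cell isolation among other stimuli, summed to 1082, 824, and 1837 CPM in the CD31+ libraries, 453, 358, and 589 in E14.5 CD54+CD31-, and 143, 135, and 169 in P2, and were thus also highest in each replicate 3. At E18.5 they summed to 4544, 3170, and 3121 CPM, where *Hspa1a* and *Hspa1b* were lowest in replicate 1. The part of cell isolation in the *Hspa1a* values was not tested.

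Counted by comparison, the members can be set against all genes. Between P2 and CD54+CD31- cells, 70.0% of 15461 genes were called, 33.8% higher and 36.1% lower in P2 cells. Of the 9 members other than *Hsp90ab1*, 5 were higher (*Hsp90aa1*, *Hspa8*, *Hspa4*, *Hspd1*, and *Hspe1*), the 2 ER genes were lower, and *Hspa9* and *Hspa1a* were not called, a called share near that of all genes. Between P2 and CD31+ cells, where 73.7% of all genes were called (34.3% higher, 39.4% lower), 6 of these 9 members were higher, the same 2 ER genes were lower, and *Hspa1a* was not called. The 2 comparisons share the P2 libraries. Between CD31+ and CD54+CD31- cells, 65.6% of genes were called (31.7% higher, 34.0% lower), and 7 of 10 members were lower and 0 higher by edgeR's test. With the replicate block, 8 members were lower and 1 higher. *Hspa1a* was the member with a positive log2 fold change there, and DESeq2 called it higher (log2 fold change 2.32, adjusted p = 0.0232). Without *Hsp90ab1*, the median log2 fold change of the other 9 members was 0.61, 1.45, and -1.18 in these comparisons, against -0.011, -0.13, and -0.031 over all genes tested. With the authors' normalization factors in place of TMM, the median over all genes moved by -0.26, -0.37, and 0.11, and apart from *Hspa9* and *Hsp90ab1* between CD31+ and CD54+CD31- cells no member changed its direction.

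**Figure D3:**
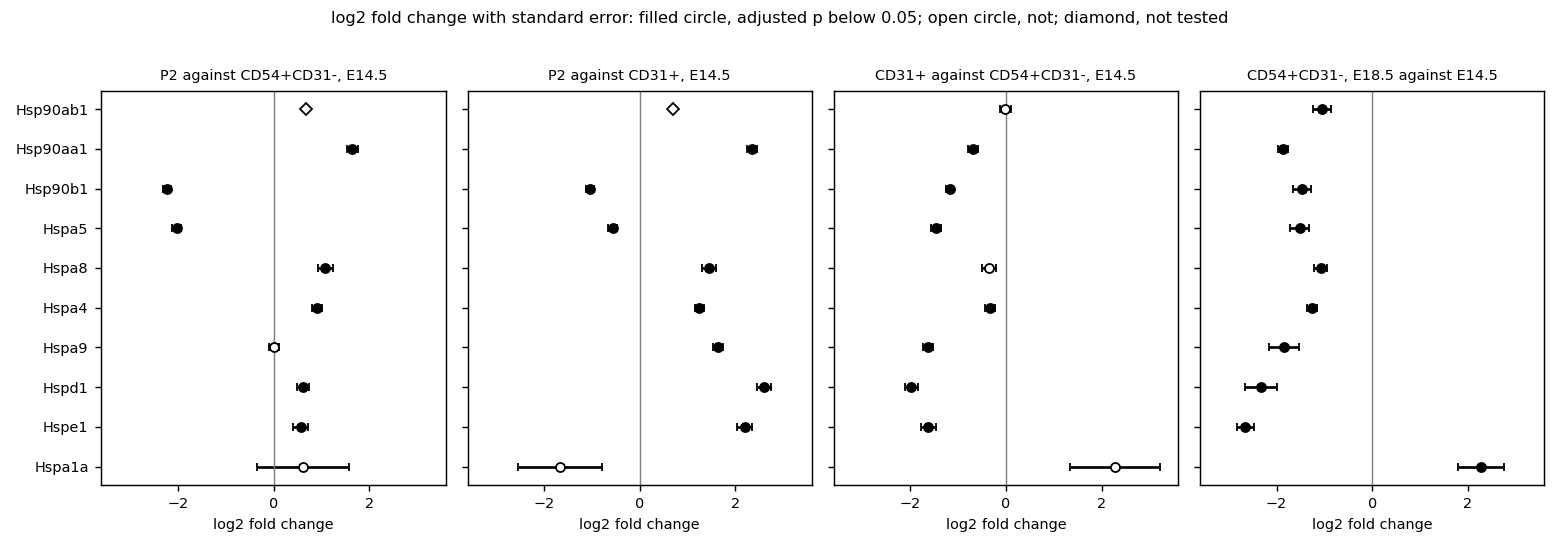
Log2 fold change (horizontal axes) of the 10 members (rows) in the 4 comparisons (panels). Whiskers are standard errors, filled circles have an adjusted p below 0.05 (edgeR), open circles do not, and diamonds mark *Hsp90ab1* where it was chosen by its P2 level and not tested. The ER genes *Hsp90b1* and *Hspa5* lie at -2.22 and -2.03 in the first panel, left of 0, where *Hsp90aa1* lies at 1.65.

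Between E14.5 and E18.5 the CD54+CD31- fraction had less of 9 of the 10 members. All 9 were called lower at E18.5, where 69.4% of 15863 genes were called, 33.5% of them lower and 35.9% higher, and the median log2 fold change was -1.49 over the members and 0.033 over all genes. The chaperonin genes fell most, *Hspe1* 6.28-fold (log2 fold change -2.65, SE 0.17, adjusted p = 3.88e-05, edgeR) and *Hspd1* 4.99-fold (log2 fold change -2.32, SE 0.34, adjusted p = 0.000913, edgeR). *Hsp90aa1* fell 3.63-fold (log2 fold change -1.86, SE 0.11, adjusted p = 2.58e-05, edgeR) and *Hspa9* 3.61-fold (log2 fold change -1.85, SE 0.32, adjusted p = 0.00187, edgeR). The ER genes *Hspa5* and *Hsp90b1* fell by 1.52 and 1.47 on the log2 scale (adjusted p = 0.000544 and 0.000533, edgeR). *Hspa4*, *Hspa8*, and *Hsp90ab1* fell by 1.27, 1.08, and 1.05 (adjusted p = 8.24e-05, 0.000542, and 0.00237, edgeR). *Hspa1a* rose, with a log2 fold change of 2.28 (SE 0.48, adjusted p = 0.00514, edgeR), from 4 to 12 counts per library to 34 to 87. It passed the low count filter of this fit through the E18.5 libraries, where it was high. Its p is therefore not support for a rise. In bulk samples like these, fewer cells of a type and less RNA per cell cannot be told apart.
E18.5 replicate 1, with the most lung and the least hepatoblast RNA, had the lowest E18.5 level of *Hspa9*, *Hspa5*, *Hspd1*, *Hspe1*, *Hsp90b1*, *Hsp90aa1*, *Hspa4*, and *Hspa1a*, and the highest of *Hsp90ab1* and *Hspa8*. Without it the 9 genes were again called lower, with log2 fold changes from -1.11 for *Hsp90ab1* to -2.51 for *Hspe1*. *Hspa1a* was again called higher (log2 fold change 2.54, adjusted p = 0.000974, edgeR), with the same limit set by the filter. Mesenchymal markers also summed to between 3157 and 3498 CPM in the E18.5 libraries, against at most 188 in E14.5 libraries. The age of the embryos and the cells that made up the fraction cannot be told apart in this design. With all 12 libraries in one fit, *Hspa1a* was not called (log2 fold change 2.10, adjusted p = 0.0568).

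Summed by compartment, the 10 members divided differently among the populations. As shares of the summed CPM per kb of the 10 genes, cytosolic HSP90 (*Hsp90ab1* and *Hsp90aa1*) took 64.6 ± 2.10% in P2 cells, 41.3 ± 0.358% in E14.5 CD54+CD31- cells, 61.4 ± 3.42% in CD31+ cells, and 49.8 ± 5.19% at E18.5 (SD, n = 3 each). The ER share was 7.74 ± 0.266%, 38.0 ± 1.07%, 24.7 ± 1.98%, and 34.8 ± 2.90% in the same order (SD, n = 3 each). The mitochondrial share was 17.5 ± 1.05% in P2 and 15.3 ± 0.568% in E14.5 CD54+CD31- cells, and 7.26 ± 1.01% in CD31+ and 8.91 ± 2.83% in E18.5 cells (SD, n = 3 each). Cytosolic HSP70 (*Hspa8*, *Hspa4*, and *Hspa1a*) took between 5.12% and 11.0% of the sum in any library. P2 cells thus had the lowest ER share, with no library above 7.90%, while the lowest library of another population was at 23.4%. *Hsp90ab1*, at 2553 CPM per kb on average in P2 cells, was chosen by its P2 level and is part of each sum. The shares of P2 cells therefore depend in part on that choice, and shares without *Hsp90ab1* were not computed. The 10 genes together, *Hsp90ab1* included, made up 1.52%, 1.14%, 0.996%, and 0.586% of all counts on average in P2, E14.5 CD54+CD31-, CD31+, and E18.5 cells. These are shares of raw totals, without TMM adjustment. Of the same totals, *Cdk8*, *Zc3h7a*, and *Il1rapl1* together took from 10.8% (E18.5 replicate 2) to 23.1% (E14.5 CD54+CD31- replicate 2). The shares are thus not strictly comparable between groups.

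**Figure D4:**
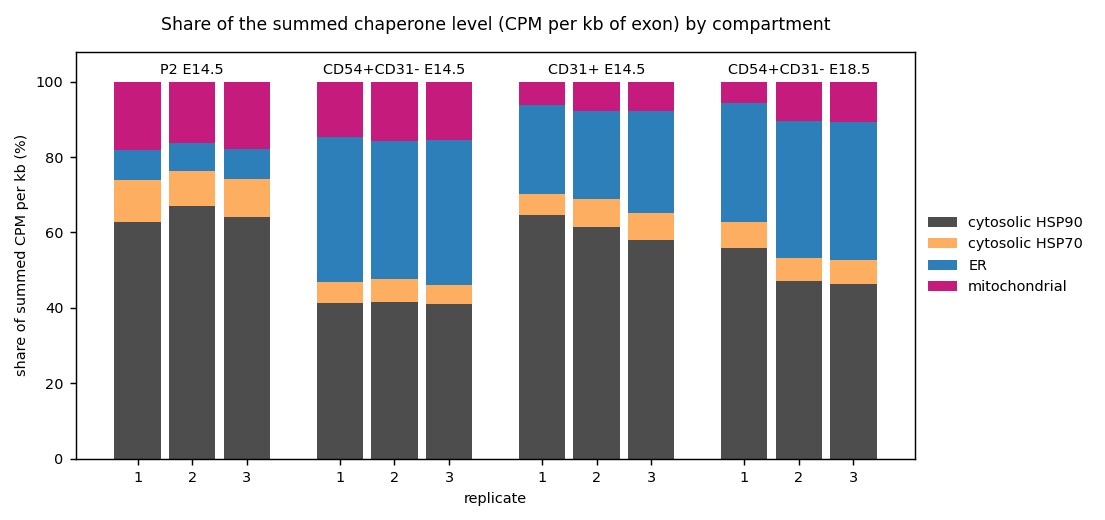
Share of the summed CPM per kb of exon of the 10 members (vertical axis, percent) by compartment (colors) in each of the 12 libraries (bars, replicates 1 to 3 per group). The ER part is at most 7.90% in P2 libraries and at least 23.4% in all others. *Hsp90ab1*, chosen by its P2 level, is part of each sum.

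The members were also compared by their profile over the 12 libraries. Likeness was measured as the root mean square difference of log2(CPM + 1) after each gene was centered on its mean, as a description over libraries that fall into 4 groups. Of the 45 pairs, *Hspa8* and *Hspa4* were nearest (0.19), followed by *Hsp90b1* and *Hspa5* (0.20), *Hsp90ab1* and *Hspa4* (0.26), *Hsp90ab1* and *Hspa8* (0.31), and *Hspd1* and *Hspe1* (0.31). The cytosolic HSP90 genes were not such a pair: *Hsp90aa1* was at 0.70 from *Hsp90ab1*, rank 17 of the 45 pairs, and was nearest to *Hspe1* (0.45). The genes nearest to *Hsp90ab1* among 16642 were *Utp3* (0.070), *Erp29* (0.072), *Coil* (0.078), *Ddx23* (0.080), and *Pqbp1* (0.091). *Utp3* acts in ribosomal RNA processing, *Coil* organizes Cajal bodies, *Ddx23* and *Pqbp1* act in splicing, and *Erp29* is an ER protein of secretion. All 5 were less abundant than *Hsp90ab1* in every group, with mean levels between 30.4 CPM (*Coil*) and 261 CPM (*Ddx23*) in P2 cells.

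The partners of the members were followed in lists of genes by role. All counts of list genes below stand beside the shares over all genes tested. In P2 cells 33.8% of genes were called higher and 36.1% lower than in CD54+CD31- cells, and 34.3% and 39.4% against CD31+ cells. In CD31+ cells 31.7% were higher and 34.0% lower than in CD54+CD31- cells. At E18.5, 35.9% were higher and 33.5% lower than at E14.5. The ER list holds lectin chaperones, disulfide isomerases, ER J-domain proteins, and the oxidases that serve them. Of its 18 genes, 16 were lower in P2 than in CD54+CD31- cells and 0 higher by edgeR's test, a median log2 fold change of -1.45. The largest falls were those of *Dnajb9* (log2 fold change -2.81, SE 0.15), an ER J-domain protein that acts on BiP, and *P4hb* (-2.77, SE 0.11), a protein disulfide isomerase. Against CD31+ cells 12 were lower, among them *Pdia6* (-1.35, SE 0.10), and 2 higher, *Ero1l* (0.76, SE 0.16), an oxidase of the disulfide isomerases, and *Canx* (0.54, SE 0.09), the membrane lectin chaperone calnexin. CD31+ cells were lower than CD54+CD31- cells in 16 of the 18, led by *Herpud1* (-2.34, SE 0.10), an ER degradation factor. At E18.5, 15 of the 18 were lower and 1, *Ero1lb*, higher (0.92, SE 0.17).
The co-chaperones of HSP90 and of cytosolic HSP70 are counted beside 33.8% of all genes called higher and 36.1% lower in P2 than in CD54+CD31- cells, and 34.3% and 39.4% against CD31+ cells. Of 15 HSP90 co-chaperones tested, 10 were higher and 2 lower than in CD54+CD31- cells, and 11 higher and 2 lower than in CD31+ cells. With the authors' factors these counts were 8 and 2, and 8 and 4. The immunophilin *Ppid* was higher against both (log2 fold change 1.77 and 1.94, SE 0.10 each), *Fkbp4*, an immunophilin of steroid receptor complexes, had the largest rise over CD31+ cells (2.20, SE 0.11), and the immunophilin *Fkbp5* was lower against both (-1.45, SE 0.08, and -1.61, SE 0.09). *Cdc37*, which brings kinases to HSP90, was higher than in CD54+CD31- cells (1.11, SE 0.15). Of 18 cytosolic HSP70 co-chaperones, 11 were higher and 4 lower than in CD54+CD31- cells, and 12 and 3 against CD31+ cells, with *Dnajc2*, a J-domain protein at the ribosome, higher against both (1.71 and 1.59, SE 0.09 each) and *Dnajb5* lower against both (-3.93 and -5.04, SE 0.36 each). With the authors' factors 8 were higher and 6 lower than in CD54+CD31- cells, and 10 and 5 against CD31+ cells. At E18.5, 11 of the 15 and 10 of the 18 were lower than at E14.5.
CCT, the cytosolic chaperonin that folds actin and tubulin, and prefoldin, which hands it those clients, had 11 of 13 tested genes higher and 0 lower in P2 than in CD54+CD31- cells by edgeR's test. With the authors' factors 9 were higher and 2 lower. *Cct2* was at 781 CPM on average in P2 cells and 344 in CD54+CD31- cells (log2 fold change 1.17, SE 0.11). Against CD31+ cells 12 were higher and 1, *Pfdn5*, lower (-0.53, SE 0.13), and at E18.5 12 of 13 were lower, among them *Tcp1* (-1.76, SE 0.13). Of 12 mitochondrial chaperones and proteases, all 12 were higher in P2 than in CD31+ cells, where the protease *Htra2* led (2.37, SE 0.11). Against CD54+CD31- cells 5 were higher and 2 lower, a balance that turned to 4 higher and 6 lower with the authors' factors and to 5 and 0 without P2 replicate 2. CD31+ cells were lower than CD54+CD31- cells in 11 of the 12, and at E18.5 9 of 12 were lower, with the protease *Lonp1* at -1.86 (SE 0.15).
Of the other HSP90, HSP70, and HSP110 genes, 10 were tested. *Hsph1*, the second HSP110 gene, which the study itself picked from these P2 libraries, was 2.29 higher on the log2 scale in P2 than in CD54+CD31- cells (SE 0.10) and 2.44 higher than in CD31+ cells (SE 0.10). *Hspa13* (-1.89, SE 0.11) and *Hyou1* (-1.08, SE 0.07), whose products sit in the ER, were lower in P2 than in CD54+CD31- cells. *Trap1*, the mitochondrial HSP90, was 1.22 higher on the log2 scale in P2 than in CD31+ cells (SE 0.08) and fell by 1.77 at E18.5 (SE 0.24). *Hspa12b*, an endothelial HSP70 relative, was 5.15 higher in CD31+ than in CD54+CD31- cells (SE 0.15). In all, beside the shares over all genes given above, 5 of the 10 were higher and 4 lower in P2 than in CD54+CD31- cells. Against CD31+ cells 5 were higher and 3 lower, and between CD31+ and CD54+CD31- cells 4 were higher and 4 lower. Between the ages 5 were higher and 5 lower. The 5 higher at E18.5 were 3 with all 12 libraries in one fit, without E14.5 CD54+CD31- replicate 1, or without E18.5 replicate 2 or 3.
The small heat shock proteins were mostly below the filter, with 4 of 9 tested at E14.5 and 5 between the ages. All 5 were higher at E18.5, where *Cryab* reached 61.3 CPM against 0.505 at E14.5. *Hspb7* and *Hspb1*, at 0.0502 and 0.0530 CPM at E14.5, passed the filter through the E18.5 libraries, at 3.14 and 3.10 CPM. The count of 5 was thus in part fixed by the filter and is not support for a rise. With the replicate block, or without E18.5 replicate 2, 4 were called higher. *Hspb8* differed most at E14.5, at 16.5 CPM in CD54+CD31- cells and 0.107 in P2 cells (log2 fold change -7.20, SE 0.41). Of the 14 regulators of the heat shock and unfolded protein responses, 5 were higher and 7 lower in P2 than in CD54+CD31- cells, and the same numbers against CD31+ cells. *Xbp1*, a transcription factor of the unfolded protein response, was lower by 3.24 on the log2 scale than in CD54+CD31- cells (SE 0.10, adjusted p = 7.67e-10, edgeR). *Hsf1*, the main activator of heat shock genes, was higher by 0.74 (SE 0.08, adjusted p = 1.85e-05, edgeR), and *Eif2ak1*, the heme-regulated kinase of the integrated stress response, by 1.05 (SE 0.11, adjusted p = 1.25e-05, edgeR). At E18.5, 8 of the 14 were lower and 1 higher, against 5 and 2 with the authors' factors and 11 and 1 with all 12 libraries in one fit. Of the 18 immediate early genes, all 18 had lower levels in P2 than in CD31+ cells, 12 were lower and 2 higher than in CD54+CD31- cells, 14 were higher in CD31+ than in CD54+CD31- cells, and all 18 were higher at E18.5.

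**Figure D5:**
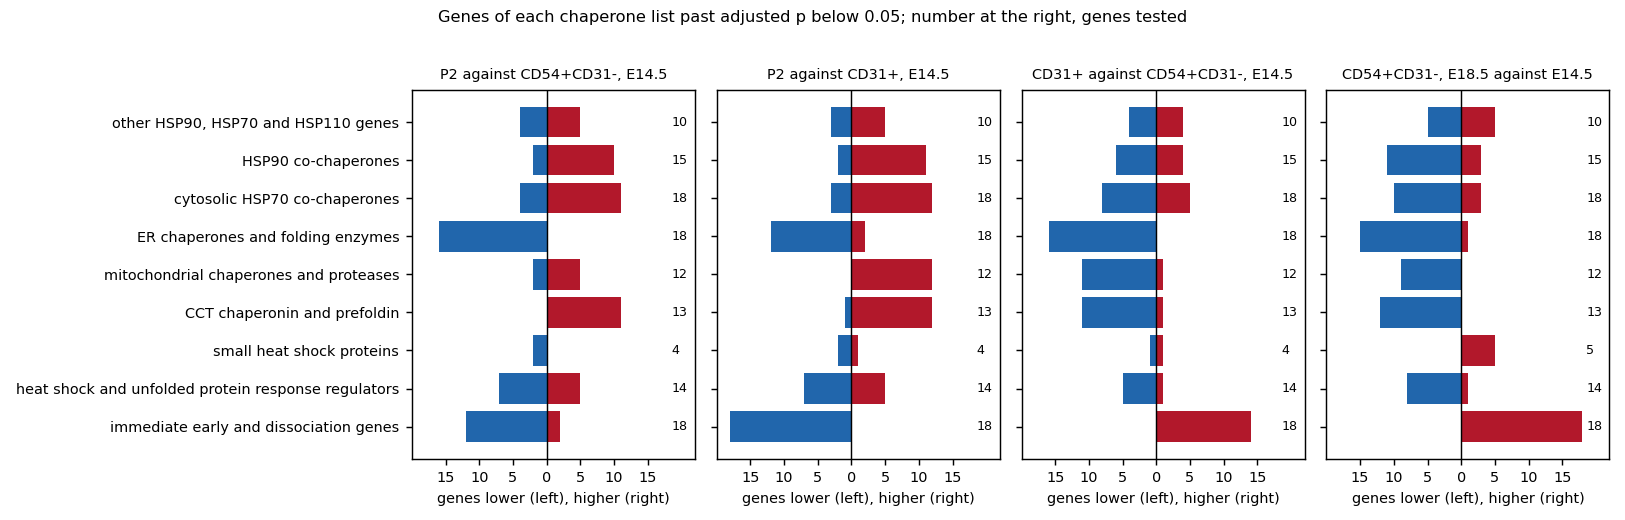
Number of genes of each list called higher (right of 0) or lower (left of 0) in the 4 comparisons (panels, adjusted p below 0.05, edgeR), with the number tested at the right of each row. The ER list has 16 of 18 genes on the lower side in the first panel, and the chaperonin list 11 of 13 on the higher side.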

How the data were processed

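RNA of 12 libraries from sorted mouse embryonic cells, given as liver, was measured, 3 for each of 4 populations. The E18.5 libraries also held lung epithelium RNA, whose source was not resolved. Per the study's methods and the labels, ribosomal RNA was removed enzymatically, libraries were made with a stranded total RNA kit and read single-end, and the submitters' processing notes name cutadapt 1.11, STAR 2.5.0a, featureCounts 1.4.6-p3, R 3.5.1, and DESeq2, with GRCm38. The strand setting, the treatment of reads with several alignments, and the annotation release are not given in the sources used here. The authors deposited whole-number counts per gene and a score, in which the counts of a library are scaled by a single factor and rounded. All tests used the counts, and the score served to recover the authors' factors.
Genes were matched by identifier, and 37932 of the 38127 identifiers were found in GENCODE vM21, which gave coordinates and exon lengths. Levels are CPM on TMM-adjusted library sizes, as mean ± SD over 3 libraries. Tests used R 4.3.3 and edgeR 4.0.16 (TMM, filterByExpr, quasi-likelihood test, Benjamini-Hochberg adjustment over all genes tested, adjusted p below 0.05), with the 9 E14.5 libraries in one fit and the 6 CD54+CD31- libraries in another, and population as the only factor. SE are the log2 fold change over the root of the F statistic, and 95% intervals are 1.96 SE to either side. The 3 libraries per group limit the precision more than counting error does for members with at least 1544 counts per library.
Alternatives were DESeq2's size factors or the authors' factors in edgeR, DESeq2 1.42.0, no low count filter, a block for the replicate number, a minimum of 10 counts per library, exclusion of genes above 1% of any library, all 12 libraries or only 6 in the fit, plain totals, mean transcript lengths, and each library left out in turn. Counts of list genes under these alternatives were added after the data were seen. The deviations from the population mean of libraries with the same number correlated at 0.33, 0.26, and 0.12 between CD31+ and CD54+CD31- cells. The numbers from the labels thus pair these libraries. In the other comparisons at least 1 pair was at 0.077 or less. Of the 9 E14.5 libraries, 8 correlated best, on average, with libraries of their own number. The main tests did not use this pairing, and the replicate block was an alternative setting. On counts simulated for 15461 genes after the comparison of P2 with CD54+CD31- cells, edgeR's test called 145 of 200 changed genes and 10 unchanged genes. DESeq2's test called 160 of the changed and 50 of the unchanged genes. The simulation changed far fewer genes than the 70.0% called between these populations, with rises and falls in equal number. It therefore does not show how the tests or TMM perform at that share. No library was a duplicate of another (chi-square per degree of freedom of replicate pairs at least 38.6).
The members and lists were chosen with earlier results of these data known. All 10 members are named, and of each list and comparison up to 3 called genes with the largest rise and up to 3 with the largest fall, and the 5 genes nearest to *Hsp90ab1*.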

Additional observations from a re-analysis of the deposited data

How the results depend on the processing

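Over the 40 values of the members in the 4 comparisons, 586 values under 21 alternative settings were computed, of which 552 kept the direction and the side of the threshold and 13 turned the sign. Of 10 members, 0 were called higher in CD31+ than in CD54+CD31- cells and 1, *Hspa1a*, with the authors' factors, the DESeq2 test, no low count filter, the replicate block, all 12 libraries, only the 6 libraries compared, or without CD31+ replicate 1. The member called higher at E18.5, *Hspa1a*, was not among those tested with at least 10 counts in every library, and 0 were called there and with all 12 libraries in one fit.
The sign of *Hspa9* between P2 and CD54+CD31- cells turned to -0.26 with the authors' factors, -0.091 with at least 10 counts in every library, and -0.017 with only the 6 libraries, and lay between -0.043 and 0.036 with each library left out. *Hspa1a* in this comparison lay between -0.55, without P2 replicate 3, and 1.11. *Hsp90ab1* between CD31+ and CD54+CD31- cells turned to 0.013 with DESeq2's size factors, 0.093 with the authors' factors, 0.013 with the DESeq2 test, 0.028 with at least 10 counts in every library, and 0.012 with only the 6 libraries, and lay between -0.15 and 0.027 with each library left out. None of these *Hsp90ab1* values was past the threshold, and for all of these changes the cause was not tested. With the authors' factors *Hsp90ab1* was 0.42 above CD54+CD31- and 0.33 above CD31+ cells in P2 cells on the log2 scale.
The shares of calls that were higher moved with the authors' factors from 48.3% to 38.2% between P2 and CD54+CD31- cells, from 46.6% to 33.9% between P2 and CD31+ cells, and from 51.7% to 60.9% between the ages, while all 12 libraries in one fit gave 44.6% there. The regulators called higher in P2 than in CD54+CD31- cells went from 5 to 2 with the authors' factors. Of the small heat shock proteins, 3 were tested between the ages with at least 10 counts in every library, and all 3 were higher at E18.5. With all 12 libraries in one fit, 4 of 6 tested were higher and 1 lower. The replicate block changed the calls of *Hspa8* and *Hspa1a* given above and no other call of a member. Ratios per kb with mean transcript length in place of exon length moved by a constant factor per gene pair. Counts were low for *Hspa1a*, with at most 141 in any library.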
